A study of Homo sapiens with 14 samples.

Results

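The genes described here are targets of hypoxia-inducible factors (HIF) that act outside glycolysis, in angiogenesis, pH control, mitophagy and related tasks. The rule names 10 genes by symbol and sets no threshold on their values, but the genes were proposed with earlier results of these data known. Of these, 9 were analysed among the 19923 genes counted, namely ADM, CA9, CA12, NDRG1, ANKRD37, AK4, BNIP3, BNIP3L and FAM162A. VEGFA was not analysed here. All 9 had enough counts to be tested in every comparison of the main fits. CA9 did so only narrowly in batch 2, with 4 to 18 counts per library.

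HIF is a pair of proteins, an oxygen-regulated alpha subunit and the stable partner ARNT. In oxygenated cells prolyl hydroxylases (EGLN proteins) mark the alpha subunit for destruction by VHL, a step that needs iron and that cobalt salts block. The stabilised factor binds short DNA motifs with the core ACGTG or GCGTG and raises the transcription of genes that adapt the cell to low oxygen. In neuroblastoma, a tumour of the sympathetic lineage, hypoxia is known to raise the output of factors that draw in blood vessels.

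The study sequenced polyadenylated RNA of SK-N-BE2 cells, a widely used neuroblastoma line in which MYCN is amplified, in 14 libraries; the medium was RPMI1640 with serum. Batch 1 held cells of genotype WT given H2O, 10 µM CoCl2 or 50 µM CoCl2. Batch 2 held cells without treatment, of genotype WT or labelled TET2 KO with the numbers 1, 2 and 3. The TET2 protein turns methylated cytosines of DNA into hydroxymethylated ones. Each of the 7 groups had 2 replicates. The labels give neither the time under CoCl2, nor how the knockouts were made, nor whether a knockout number is a clone, nor whether replicates were separate cultures, so p-values measure only the spread between these libraries.

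The batch 1 libraries held between 31214128 and 39540111 counts each. Those of batch 2 held between 52095024 and 59263320, mostly with each read of a pair counted by itself. TET2 itself was not lower in the libraries labelled knockout: it stood at 67.8 CPM (counts relative to the normalised library total, in the usual per-million scale) ± 4.30 (SD, n = 2) in WT, against 78.5 ± 2.71, 89.2 ± 2.67 and 71.8 ± 5.08 in labelled knockouts 1, 2 and 3. TET2 rose by 0.21 on the log2 scale in number 1 (adjusted p = 0.000664, edgeR) and by 0.40 in number 2 (adjusted p = 3.85e-12, edgeR). In number 3 its difference of 0.08 did not pass (adjusted p = 0.301, edgeR). The labels do not place an edit, so counts over the whole gene do not check them. All 9 adrenergic marker genes had counts in every group, and 8 had enough to be tested. Their summed level was 4837 to 7193 CPM. Most of it was MYCN, which is amplified in this line, at a mean of 5103 CPM over batch 1 and 4186 over batch 2. Summed endothelial markers did not exceed 13.02 CPM in any library, and the leukocyte gene PTPRC was at 0 in 5 of the 7 groups.

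The 250 bases before the RefSeq start site are shown for 5 of the genes, because they pair the steepest rises under CoCl2 (CA9, CA12 and AK4) with BNIP3, which rose least, and ANKRD37, which did not pass the test. Coordinates are GRCh38.p14. Capitals mark ACGTG or GCGTG, on either strand, so that they read CACGT or CACGC where the motif lies on the other strand. CACGTG, the E-box that MYC and MYCN proteins also bind, holds ACGTG on both strands.
CA9, chr9:35673678-35673927, plus strand: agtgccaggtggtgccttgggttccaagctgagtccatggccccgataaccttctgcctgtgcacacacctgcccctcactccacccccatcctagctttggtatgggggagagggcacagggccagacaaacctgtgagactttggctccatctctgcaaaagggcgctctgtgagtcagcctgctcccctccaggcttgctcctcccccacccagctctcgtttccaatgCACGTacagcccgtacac
CA12, chr15:63381847-63382096, minus strand: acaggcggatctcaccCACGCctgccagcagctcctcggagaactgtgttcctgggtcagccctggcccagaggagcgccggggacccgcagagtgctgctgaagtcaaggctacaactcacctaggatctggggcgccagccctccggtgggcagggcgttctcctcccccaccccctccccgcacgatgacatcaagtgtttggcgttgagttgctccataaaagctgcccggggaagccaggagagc
AK4, chr1:65147302-65147551, plus strand: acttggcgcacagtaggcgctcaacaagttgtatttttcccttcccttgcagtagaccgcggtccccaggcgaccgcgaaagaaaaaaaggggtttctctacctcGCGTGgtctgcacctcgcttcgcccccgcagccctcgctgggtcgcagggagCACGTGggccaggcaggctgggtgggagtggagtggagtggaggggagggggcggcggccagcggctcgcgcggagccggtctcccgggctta
BNIP3, chr10:131981924-131982173, minus strand: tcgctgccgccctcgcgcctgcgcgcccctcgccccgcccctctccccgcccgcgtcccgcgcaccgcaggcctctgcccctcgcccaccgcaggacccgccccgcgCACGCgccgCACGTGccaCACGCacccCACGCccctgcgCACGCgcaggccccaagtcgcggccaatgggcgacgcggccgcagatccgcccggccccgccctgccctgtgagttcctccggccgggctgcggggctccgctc
ANKRD37, chr4:185396591-185396840, plus strand: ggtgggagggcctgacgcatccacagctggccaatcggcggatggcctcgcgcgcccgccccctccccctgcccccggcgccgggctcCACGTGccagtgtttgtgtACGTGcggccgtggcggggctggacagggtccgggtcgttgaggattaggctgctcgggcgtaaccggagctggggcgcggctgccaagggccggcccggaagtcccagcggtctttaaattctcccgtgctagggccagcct

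RefSeq windows from 250 bases before to 50 after a start site were at hand for 7 of the 9 genes, in 10 windows, 4 of them at AK4. All 7 genes held ACGTG or GCGTG on either strand in at least 1 window. Of all 35116 windows of that length 48.4% held either, a share per window and not per gene. ACGTG alone was in 21.4% of all windows, GCGTG in 36.5% and CACGTG in 7.3%. CACGTG was found in 3 of the 7 genes, ANKRD37, AK4 and BNIP3. In CA9 the motif began 18 bases before the start site, on the other strand. In BNIP3 there were 4 copies of GCGTG beside the CACGTG. CA12 and ADM held GCGTG and no ACGTG in this window, and FAM162A held 1 ACGTG and 3 GCGTG. ANKRD37 held 3 ACGTG matches over both strands.

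In the annotation of the count files (GRCh38) the genes lie apart on 8 chromosomes. ADM is at chr11:10305073-10307397, CA9 at chr9:35673918-35681159, CA12 at chr15:63321378-63381846, NDRG1 at chr8:133237171-133302022, ANKRD37 at chr4:185396021-185400628, AK4 at chr1:65147549-65232145, BNIP3 at chr10:131966455-131982013, BNIP3L at chr8:26383054-26505636 and FAM162A at chr3:122384176-122412334. CA12, NDRG1 and BNIP3 are on the minus strand and the others on the plus strand.

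At 50 µM CoCl2, 8 of the 9 genes rose against H2O and none fell. Among all 13636 genes tested, 61.4% were called (Benjamini-Hochberg adjusted p under 0.05 in edgeR's quasi-likelihood test), 30.4% as higher and 31.1% as lower, so a call by itself was common at this dose. The median log2 difference was 0.58 over the 9 genes and 0.00 over all genes. AK4 and CA12 rose most, to 1.98 times their level in H2O, followed by CA9, ADM and FAM162A. BNIP3L, NDRG1 and BNIP3 rose by 1.16 to 1.21 times. All 8 rises held their direction and their call under each of the 12 alternatives tried, including the omission of any single library.

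**Figure D1:**
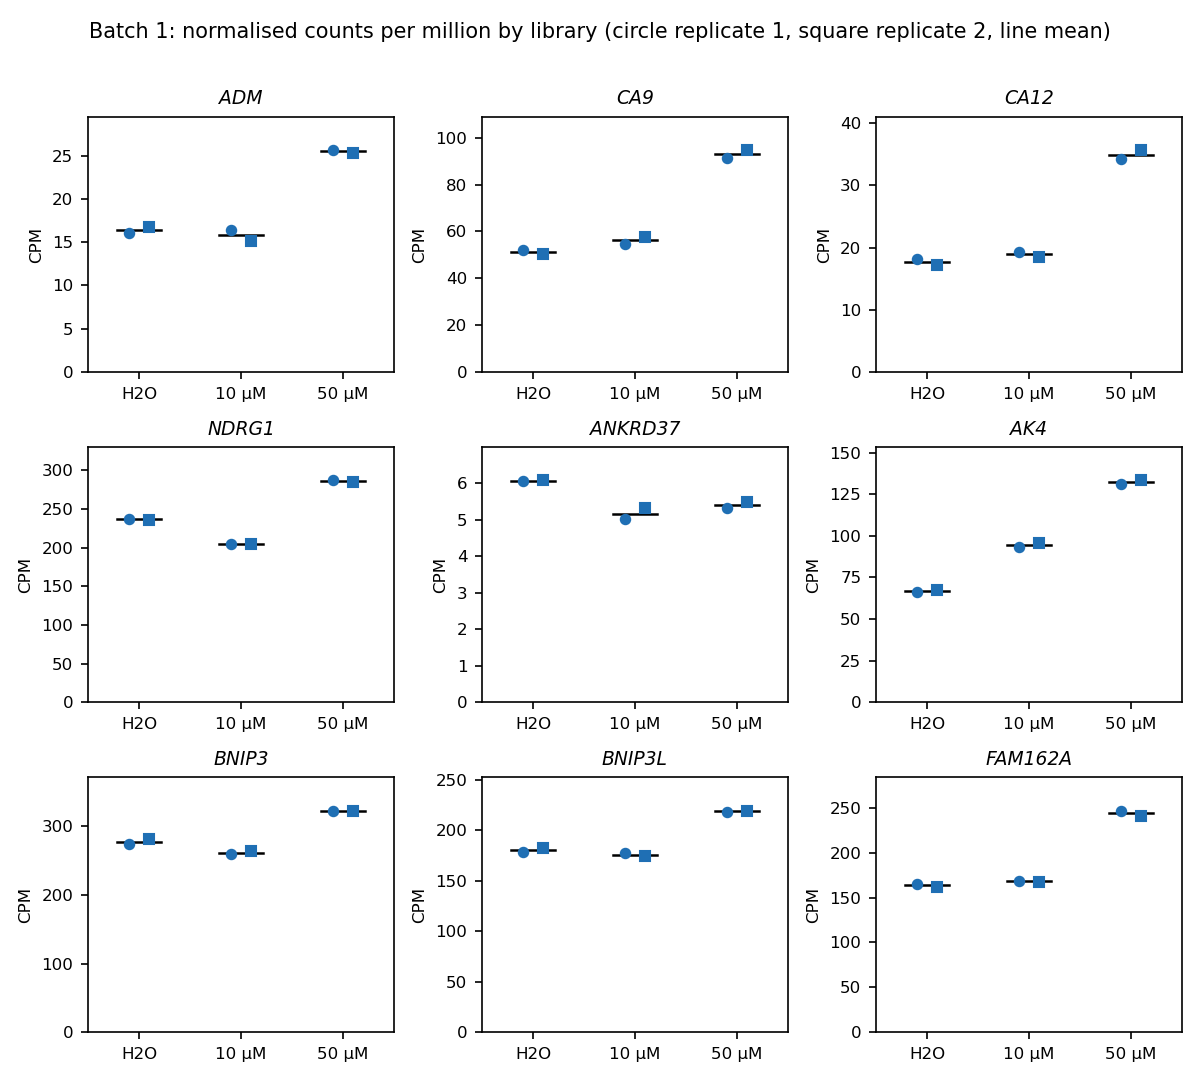
Normalised CPM (vertical axes, from 0) of the 9 genes in each library of batch 1, by group (horizontal axes). Circles are replicate 1, squares replicate 2 and lines the mean of 2. All genes but ANKRD37 have their highest libraries at 50 µM, and NDRG1 and BNIP3 lie lower at 10 µM than in H2O.

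CA9 and CA12 encode carbonic anhydrases of the cell surface that turn carbon dioxide into bicarbonate and protons outside the cell. CA9 was at 52.3 and 50.5 CPM in H2O, 54.8 and 57.6 at 10 µM and 91.2 and 94.7 at 50 µM. The 50 µM libraries stood apart from the other 4, and CA9 rose by 0.86 on the log2 scale (SE 0.03, adjusted p = 5.54e-58). CA12 was at 18.1 and 17.3 CPM in H2O, 19.3 and 18.6 at 10 µM and 34.3 and 35.7 at 50 µM. It rose by 0.99 at 50 µM (SE 0.05, adjusted p = 5.94e-42), whereas its difference of 0.10 at 10 µM did not pass (95% interval -0.02 to 0.21).

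The counting did not use strand, and 36.13% of the exonic bases of CA9 are shared with ARHGEF39 on the opposite strand. ARHGEF39 fell by 0.61 at 50 µM (SE 0.08, adjusted p = 4.79e-13), the opposite direction to CA9. Of 14 other carbonic anhydrases and pH transporters tested, 4 rose and 5 fell at 50 µM, with a median log2 difference of 0.01. The lactate and proton carrier SLC16A1 rose by 0.14 and CA11 by 0.46, while CA10 fell by 0.69 and the anion exchanger SLC4A3 fell by 1.26. At 10 µM 2 of the 14 rose and 4 fell, among them SLC16A3, which fell by 0.57.

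ADM encodes adrenomedullin, a secreted peptide that dilates vessels and supports endothelial growth. It was at 16.0 and 16.7 CPM in H2O, 16.5 and 15.1 at 10 µM and 25.6 and 25.4 at 50 µM. The H2O and 10 µM libraries overlapped, and those at 50 µM lay above both. The rise at 50 µM was 0.64 (SE 0.06, adjusted p = 5.65e-21). Of 6 related ligands, receptors and receptor-modifying proteins tested, 3 rose and 2 fell. ADM2, a related peptide, rose by 0.83 and CALCB, a calcitonin gene-related peptide, by 1.06, while RAMP2, which turns the receptor CALCRL into an adrenomedullin receptor, fell by 1.29. RAMP1 fell by 0.13.

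Among 8 tested VEGF ligands and receptors other than the gene left out here, 3 rose and 3 fell at 50 µM. The receptor FLT1 rose by 1.44 (SE 0.15) and the co-receptor NRP1 by 0.70, while the co-receptor NRP2 fell by 0.51 and the ligand PGF by 0.76. At 10 µM, NRP1 rose by 0.19 and PGF fell by 0.54. RNA of endothelial marker genes lay between 1.69 and 1.97 CPM in H2O and between 0.840 and 0.864 at 50 µM, summed over 6 genes, with KDR and TIE1 at 0 in the latter. Summed mesenchymal markers were 1250 to 1254 CPM in H2O and 1605 to 1624 at 50 µM. VIM made up most of this sum and rose by 0.42. Of the 7 mesenchymal genes tested, 3 rose and 2 fell at 50 µM, the latter being TWIST1 (-0.43) and COL3A1 (-0.75). Summed macrophage markers were 5.85 to 6.23 CPM in H2O and 19.4 to 19.97 at 50 µM. Most of that sum was CD68, a lysosomal gene not limited to macrophages, which rose by 1.86. Their part in the rises of the HIF targets was not tested, and a change in the share of cells cannot be told apart from a change in RNA per cell.

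AK4 encodes a mitochondrial adenylate kinase, which balances adenine nucleotides. It made the largest step of the 9 at the lower dose, with 66.2 and 67.3 CPM in H2O, 93.4 and 95.7 at 10 µM and 131 and 133 at 50 µM. No libraries of different groups overlapped. AK4 rose by 0.50 at 10 µM (SE 0.03, adjusted p = 3.78e-34) and by 0.99 at 50 µM (SE 0.03, adjusted p = 3.58e-74). The step from 10 to 50 µM was 0.48 (SE 0.03). Of the 8 other adenylate kinases tested, 2 rose and 3 fell at 50 µM. AK9 fell by 0.30 and AK5 rose by 0.07. Their median log2 difference at 10 µM was -0.03.

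BNIP3 and BNIP3L are outer-membrane proteins of mitochondria that tether them to the autophagy machinery. FAM162A, another mitochondrial protein induced by hypoxia, has been linked to cell death. FAM162A was at 165 and 162 CPM in H2O, 168 and 168 at 10 µM and 247 and 241 at 50 µM, a rise of 0.58 at the higher dose (SE 0.02, adjusted p = 1.16e-58). BNIP3L was at 179 and 183 CPM in H2O, 178 and 175 at 10 µM and 218 and 220 at 50 µM. It rose by 0.28 at 50 µM (SE 0.02, adjusted p = 7.39e-25), less than FAM162A. For both genes the 50 µM libraries lay above all the others, and the H2O and 10 µM libraries did not overlap either, though neither gene passed the test at 10 µM.

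BNIP3 was at 274 and 281 CPM in H2O, 260 and 264 at 10 µM and 323 and 322 at 50 µM. It fell by 0.08 at 10 µM (SE 0.02, adjusted p = 0.000488) and rose by 0.22 at 50 µM (SE 0.02, adjusted p = 4.68e-21). With all 14 libraries in a single fit the fall at 10 µM did not pass (adjusted p = 0.116). The annotation lists 39 processed pseudogenes of BNIP3 and 6 of AK4, and reads that match a copy may have been lost or misplaced. In FAM162A 12.89% and in BNIP3L 7.95% of the exonic bases are shared with WDR5B and PNMA2 on the opposite strand. At 50 µM WDR5B differed by -0.01 (adjusted p = 0.947), and PNMA2 fell by 0.10.

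Of 18 other mitophagy receptors and adaptors, 10 rose and 3 fell at 50 µM, with a median of 0.10. Those with the smallest p-values were the autophagosome proteins MAP1LC3B (0.54), GABARAPL1 (0.60) and MAP1LC3A (0.49) and the cargo receptor SQSTM1 (0.51), all higher. At 10 µM 2 rose and 2 fell, with MAP1LC3B higher by 0.19 and the mitochondrial protein NLRX1 lower by 0.24.

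NDRG1 encodes a cytoplasmic stress protein whose name, N-myc downstream regulated gene, comes from its repression by MYCN. It was at 237 and 236 CPM in H2O, 205 and 205 at 10 µM and 287 and 285 at 50 µM. The replicates lay close together and no groups overlapped. NDRG1 fell by 0.20 at 10 µM (SE 0.02, adjusted p = 3.74e-16) and rose by 0.28 at 50 µM (SE 0.02, adjusted p = 9.25e-28). Its relatives moved otherwise: NDRG2 fell at both doses, by 0.27 and 0.45, as did NDRG4, by 0.13 and 0.09, and NDRG3 passed at neither.

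ANKRD37, a small ankyrin repeat protein, was the exception at 50 µM. It was at 6.06 and 6.08 CPM in H2O, 5.01 and 5.33 at 10 µM and 5.31 and 5.49 at 50 µM, so that all 4 treated libraries lay below both controls. Neither difference passed the test, -0.23 at 10 µM (adjusted p = 0.105) and -0.17 at 50 µM (adjusted p = 0.168). The 95% interval at 50 µM, -0.37 to 0.04, does not include a rise of the size seen in the other 8 genes. Its 166 to 241 counts per library in batch 1 were the fewest of the 9 genes. It shares 40.35% of its exonic bases with UFSP2, at 46.0 CPM in H2O, whose own difference at 50 µM was -0.06 (adjusted p = 0.214).

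**Figure D2:**
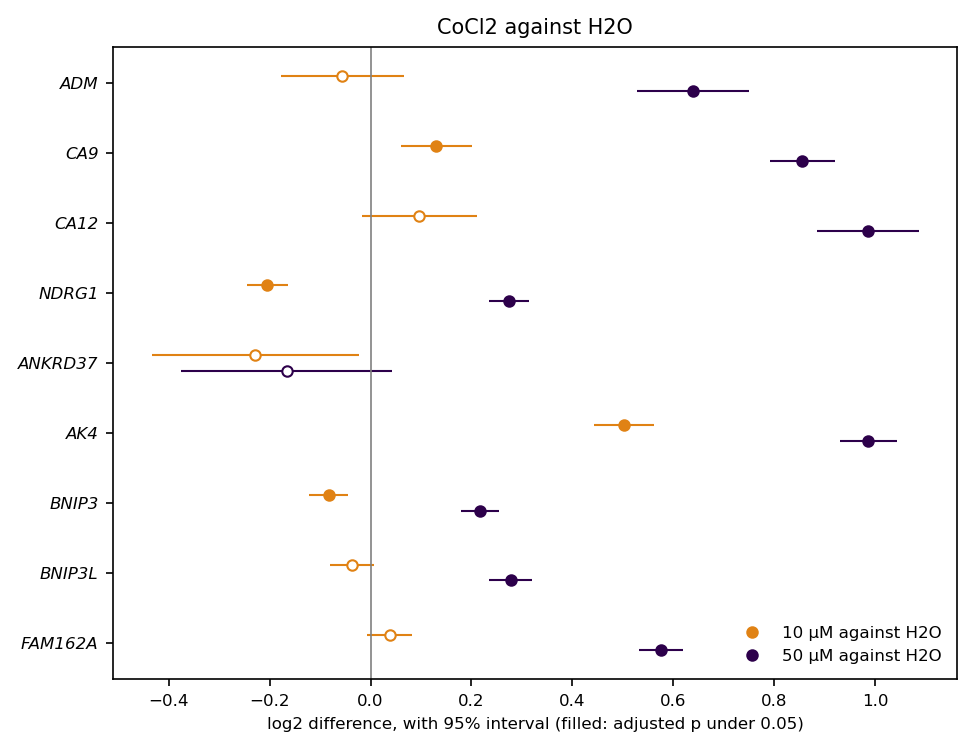
Log2 difference from H2O (horizontal axis) of the 9 genes at 10 and 50 µM CoCl2, with 95% intervals from the model's standard errors. Filled points passed the adjusted threshold of 0.05. At 10 µM the points lie on both sides of 0, from -0.23 for ANKRD37 to 0.50 for AK4, and at 50 µM they lie above 0 except ANKRD37.

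At 10 µM the 9 genes did not move together. AK4 and CA9 rose, NDRG1 and BNIP3 fell, and 5 did not pass the test. Over all genes 22.7% were called at this dose, 11.6% higher and 11.1% lower. CA9 rose by 0.13 (SE 0.04, adjusted p = 0.00339), a call that was lost without H2O replicate 2 (0.10, adjusted p = 0.0915) or without replicate 2 at 10 µM (0.09, adjusted p = 0.199), and with DESeq2 (adjusted p = 0.111), which called 7.97% of all genes at this dose. Both AK4 and CA9 were called higher at both doses, as were 8.62% of all genes. AK4 and NDRG1 kept their calls in every alternative tried.

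Between the doses, 8 of the 9 genes were higher at 50 than at 10 µM, where 52.8% of all genes were called and 26.2% higher. The differences ran from 0.30 for BNIP3 to 0.89 for CA12, and ANKRD37 differed by 0.06 (95% interval -0.16 to 0.28). NDRG1 and BNIP3 were called lower at 10 µM and higher at 50 µM, as were 0.462% of all genes. Both comparisons share the H2O libraries, but the step from 10 to 50 µM was itself called, at 0.48 (SE 0.02) for NDRG1 and 0.30 (SE 0.02) for BNIP3.

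Of 27 other non-glycolytic HIF targets, 24 rose and 2 fell at 50 µM, with a median of 0.20. The largest named rise was ANGPTL4, a secreted regulator of lipid uptake, by 1.32, followed by the ubiquitin ligase component WSB1 (0.80), the HIF hydroxylase EGLN3 (0.62) and the histone demethylase KDM3A (0.61). At 10 µM 7 rose and 8 fell, with a median of 0.00. The collagen hydroxylase PLOD2 rose by 0.35 and the nuclear receptor RORA by 0.25 at that dose. Among 10 genes for HIF subunits and oxygen sensors, 3 rose and 4 fell at 50 µM, including EGLN1, which rose by 0.33, and ARNT2 and HIF1AN, which fell by 0.24 and 0.13. HIF1A rose by 0.06 at 10 µM.

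In the libraries labelled TET2 knockout, the 9 genes showed no common direction. ADM was lower in each of the 3 labelled knockouts, at 0.43 to 0.53 times its level in WT. AK4 was higher in numbers 1 and 3, NDRG1 lower in numbers 2 and 3, and BNIP3L higher in number 2 and lower in number 3. CA9, CA12, ANKRD37 and FAM162A passed in none of the 3, by edgeR's quasi-likelihood test or by DESeq2, and the lowest of their 12 unadjusted p-values was 0.162. In labelled knockout 1, 3 of 9 genes were called, against 17.5% of 14061 tested genes (7.79% higher and 9.72% lower). In number 2 it was 3 of 9 against 26.3% (12.0% higher and 14.3% lower). In number 3 it was 4 of 9 against 18.9% (8.90% higher and 9.96% lower).

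**Figure D3:**
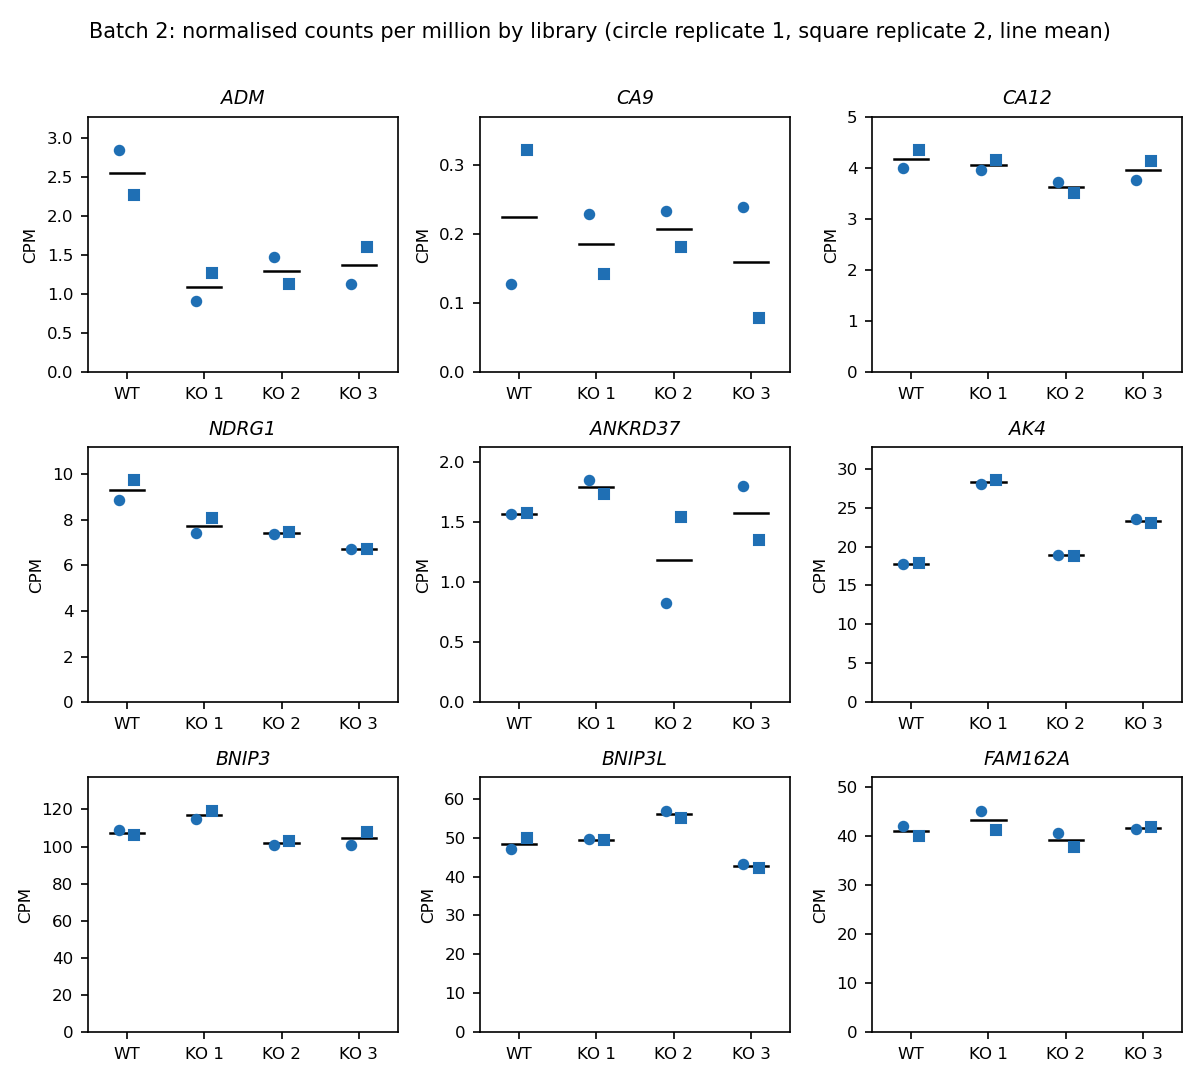
Normalised CPM (vertical axes, from 0) of the 9 genes in each library of batch 2, by group (KO stands for labelled TET2 knockout). Circles are replicate 1, squares replicate 2 and lines the mean of 2. ADM lies below both WT libraries in all 6 knockout libraries, and AK4 rises above WT most in number 1.

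ADM was at 2.84 and 2.27 CPM in WT, 0.913 and 1.27 in labelled knockout 1, 1.47 and 1.12 in number 2 and 1.13 and 1.60 in number 3. All 6 knockout libraries lay below both WT libraries. ADM fell by 1.21 in number 1 (SE 0.26, adjusted p = 0.000137), by 0.97 in number 2 (SE 0.25, adjusted p = 0.00123) and by 0.92 in number 3 (SE 0.25, adjusted p = 0.00324). It was the only one of the 9 genes called in the same direction in all 3. Of all genes, 2.84% were called lower in all 3 and 1.43% higher in all 3. The libraries hold 48 to 156 counts of ADM each, and the calls of 2 labelled knockouts depended on single libraries. Number 2 did not pass without WT replicate 1 (-0.81, adjusted p = 0.0502) or without its own replicate 2 (-0.79, adjusted p = 0.0532). Number 3 did not pass without WT replicate 1 (-0.75, adjusted p = 0.106) or its own replicate 1 (-0.67, adjusted p = 0.164).

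Genes around adrenomedullin moved in different directions between the labelled knockouts. The receptor CALCRL fell by 1.42 in number 1, fell by 1.82 in number 3 and rose by 0.88 in number 2, and RAMP1 fell by 0.83 in number 2 and rose by 0.41 in number 3. Of 7 genes of this list tested, 1 was called in number 1, 5 in number 2 and 2 in number 3. The VEGF receptor KDR fell in all 3, with log2 differences of -3.21, -3.43 and -1.47, from a low level (mean 1.06 CPM over batch 2). KDR is also among the endothelial genes summed in the next paragraph. FLT1 fell by 0.41 in number 1, fell by 1.32 in number 3 and rose by 1.27 in number 2. NRP1 fell by 0.82 in number 1 and fell by 1.08 in number 3.

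Marker genes of other cell types moved beside ADM. Summed over 6 endothelial genes, WT held 12.6 to 13.0 CPM, labelled knockout 1 held 1.66 to 2.11, number 2 held 4.13 to 4.96 and number 3 held 2.38 to 3.01. Of the 6, 5 fell in number 1, 4 in number 2 and 5 in number 3, and none was at 0 in any of these groups. Summed over 8 mesenchymal genes, WT held 1441 to 1461 CPM and the labelled knockouts 969 to 1160. Of the 8, 2 rose and 5 fell in number 1, 4 fell and none rose in number 2, and 1 rose and 5 fell in number 3. TWIST1 was among those that rose in numbers 1 and 3, by 0.26 and 0.30. PRRX1 was at 0 in numbers 1 and 3, but its mean over batch 2 was only 0.09 CPM and it passed in no labelled knockout. Summed macrophage genes were 11.9 to 13.2 CPM in WT and 7.76 to 16.9 in the labelled knockouts. Summed adrenergic genes were 6612 to 6723 CPM in WT, 4837 to 4897 in number 2 and 6725 to 6837 in the others. MYCN made up most of this sum, at a mean of 4186 CPM over batch 2, and fell by 0.72 in number 2. Of the 8 adrenergic genes tested, 3 rose and 2 fell in number 2, with TBX2 higher by 1.09. Their part in the fall of ADM was not tested.

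AK4 was at 17.7 and 17.9 CPM in WT, 28.1 and 28.5 in labelled knockout 1, 18.9 and 18.8 in number 2 and 23.6 and 23.1 in number 3. The replicates lay close together and no groups overlapped. AK4 rose by 0.67 in number 1 (SE 0.08, adjusted p = 2.3e-13) and by 0.39 in number 3 (SE 0.08, adjusted p = 6.1e-05). Its difference in number 2 was 0.08 (95% interval -0.08 to 0.25). The labelled knockouts differed from one another (adjusted p = 2.26e-10), and each pair of them passed the test. AK5, another adenylate kinase, rose in the same 2 labelled knockouts, by 0.43 in number 1 and 0.70 in number 3.

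NDRG1 was at 8.88 and 9.72 CPM in WT, 7.40 and 8.07 in labelled knockout 1, 7.36 and 7.47 in number 2 and 6.70 and 6.73 in number 3. All 6 knockout libraries lay below WT. It fell by 0.33 in number 2 (SE 0.12, adjusted p = 0.0332) and by 0.47 in number 3 (SE 0.13, adjusted p = 0.00235), and differed by -0.26 in number 1 (adjusted p = 0.123). The labelled knockouts did not pass the test of a difference among them (adjusted p = 0.406). In number 2 the call was lost with DESeq2 (adjusted p = 0.0604), which called 22.2% of all genes there, and without WT replicate 2 (-0.27, adjusted p = 0.223), its own replicate 1 (-0.32, adjusted p = 0.147) or its own replicate 2 (-0.34, adjusted p = 0.108). In number 3 it was lost without WT replicate 2 (-0.40, adjusted p = 0.055). NDRG2 rose in all 3, by 0.44, 0.28 and 0.38, and NDRG4 fell in numbers 1 and 2, by 0.24 and 0.22.

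BNIP3L was at 47.0 and 49.9 CPM in WT, 49.5 and 49.4 in labelled knockout 1, 56.9 and 55.0 in number 2 and 43.3 and 42.1 in number 3. It rose by 0.21 in number 2 (SE 0.06, adjusted p = 0.00201) and fell by 0.18 in number 3 (SE 0.06, adjusted p = 0.0169). The difference among the labelled knockouts passed (adjusted p = 1.4e-08). The overlapping gene PNMA2 moved the other way, falling by 0.52 in number 2 and rising by 0.45 in number 3. The rise was lost without WT replicate 1 (0.16, adjusted p = 0.0828) or replicate 1 of number 2 (0.18, adjusted p = 0.0574). The fall was lost without WT replicate 2 (-0.14, adjusted p = 0.202), replicate 1 of number 3 (-0.20, adjusted p = 0.0561) or replicate 2 of number 3 (-0.16, adjusted p = 0.117).

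BNIP3 was at 109 and 106 CPM in WT, 115 and 119 in labelled knockout 1, 101 and 103 in number 2 and 101 and 108 in number 3. It rose by 0.12 in number 1 (SE 0.04, adjusted p = 0.034), a call lost without WT replicate 1 (0.14, adjusted p = 0.0703), WT replicate 2 (0.11, adjusted p = 0.194) or replicate 2 of number 1 (0.10, adjusted p = 0.293). The labelled knockouts differed (adjusted p = 7.84e-05), with number 1 above number 2 by 0.20 and above number 3 by 0.17. In all, 3 of the 9 genes differed among the labelled knockouts, AK4, BNIP3 and BNIP3L, against 37.6% of all genes. Of the 18 mitophagy genes, 3 rose and 1 fell in number 1, 6 rose and 2 fell in number 2, and 1 rose and 1 fell in number 3. SQSTM1 rose by 0.44 and GABARAPL1 by 0.78 in number 2.

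FAM162A was at 42.0 and 40.1 CPM in WT and 37.9 to 45.2 in the labelled knockouts, which overlapped WT in every case. CA12 was at 4.002 and 4.352 CPM in WT and 3.51 to 4.17 in the labelled knockouts, with differences of -0.21 to -0.04. ANKRD37 was at 1.56 and 1.57 CPM in WT and 0.825 to 1.84 in the labelled knockouts. The lowest of these, replicate 1 of number 2, held 46 counts where its replicate 2 held 85. CA9 was barely counted in batch 2, with 4 to 18 counts per library, and its differences of -0.45 to -0.12 had intervals that reached from -1.93 to 1.27, so that no change of the size seen under CoCl2 was detectable at this depth.

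**Figure D4:**
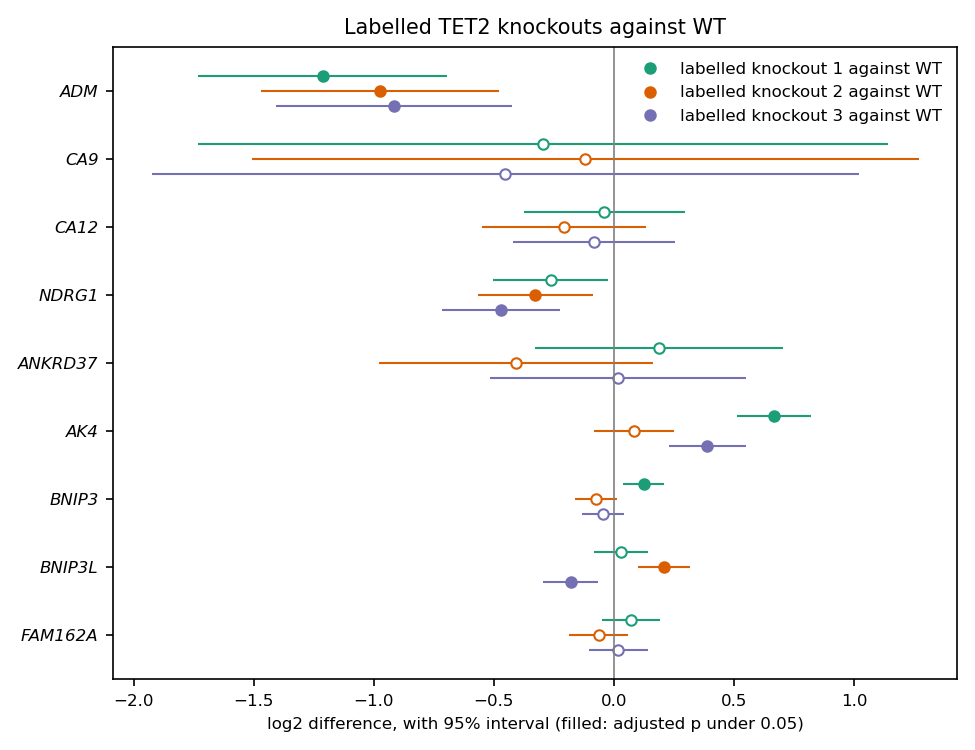
Log2 difference from WT (horizontal axis) of the 9 genes in labelled knockouts 1, 2 and 3, with 95% intervals from the model's standard errors. Filled points passed the adjusted threshold of 0.05. ADM lies near -1 in all 3, AK4 is spread from 0.08 to 0.67, and the CA9 intervals are the widest.

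Averaged over the 3 labelled knockouts, AK4 rose by 0.38 (SE 0.07, adjusted p = 1.4e-06), ADM fell by 1.03 (SE 0.20, adjusted p = 1.37e-05) and NDRG1 fell by 0.35 (SE 0.10, adjusted p = 0.00414), so that 3 of 9 were called against 18.9% of all genes (7.54% higher and 11.4% lower). With all 6 knockout libraries as a single group, whose spread then includes the differences between numbers, ADM alone kept its call. AK4 (adjusted p = 0.345) and NDRG1 (adjusted p = 0.14) did not pass. Over all genes that setting called 256, against 2656 in the main fit. The NDRG1 average was also lost without WT replicate 2 (-0.29, adjusted p = 0.147).

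The list of 27 other non-glycolytic HIF targets had 3 higher and 1 lower in labelled knockout 1, 3 and 10 in number 2, and 1 and 3 in number 3. STC2 and DDIT4 fell by 0.89 and 0.58 in number 2, where KDM3A rose by 0.40. Of the HIF genes, EPAS1, which encodes the HIF-2 alpha subunit, fell in all 3, with differences of -1.88, -1.19 and -2.21 (adjusted p = 5.66e-40, 1.95e-24 and 2.85e-46). HIF1A fell by 0.08 in number 1 and 0.22 in number 3, and EGLN3 rose by 0.27 in number 1 and 0.37 in number 2.

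ADM was the only one of the 9 genes with a difference of at least 1 on the log2 scale in any comparison with a control. Over its 5 differences (10 µM, 50 µM and the 3 labelled knockouts), the nearest of 13373 genes by Euclidean distance were FILIP1L (0.286), NPAS2 (0.343) and KCP (0.383). FILIP1L differed by 0.63 at 50 µM and by -1.11, -0.84 and -0.84 in the labelled knockouts, and NPAS2, a clock transcription factor, by 0.65, -0.89, -1.06 and -0.98.

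The controls of the batches held the 9 genes at different levels. Per length, as TPM, which divides by all exonic bases of a gene and scales each library alike, each was higher in H2O of batch 1 than in WT of batch 2. No test was made, since batch and culture cannot be told apart. CA9 was at 152 TPM ± 3.72 (SD, n = 2) in H2O and 0.577 ± 0.347 in WT. NDRG1 was at 115 ± 0.398 and 3.93 ± 0.210, 29.2 times as high in H2O. ADM was at 33.5 ± 1.00 and 4.56 ± 0.771, 7.35 times as high. The other 6 were 2.96 to 4.86 times as high in H2O.

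In H2O the order per length was BNIP3 (248 TPM), BNIP3L (207), FAM162A (205), CA9 (152), NDRG1 (115), AK4 (41.9), ADM (33.5), ANKRD37 (12.8) and CA12 (12.0). Only BNIP3L and FAM162A overlapped between replicates. At 50 µM FAM162A (303 TPM) led, above BNIP3 (286), CA9 (273) and BNIP3L (249), and CA12 (23.6) had passed ANKRD37 (11.3). In WT the order was BNIP3 (83.8), BNIP3L (48.4), FAM162A (44.9), AK4 (9.76), ADM (4.56), NDRG1 (3.93), ANKRD37 (2.89), CA12 (2.48) and CA9 (0.577). The replicates of ADM and NDRG1 overlapped there. CA9 thus stood in the fourth place of the 9 in H2O and in the last place in WT. The lengths used include bases shared with other genes, 36.13% of those of CA9 and 40.35% of those of ANKRD37. Their effect on the order was not tested.

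**Figure D5:**
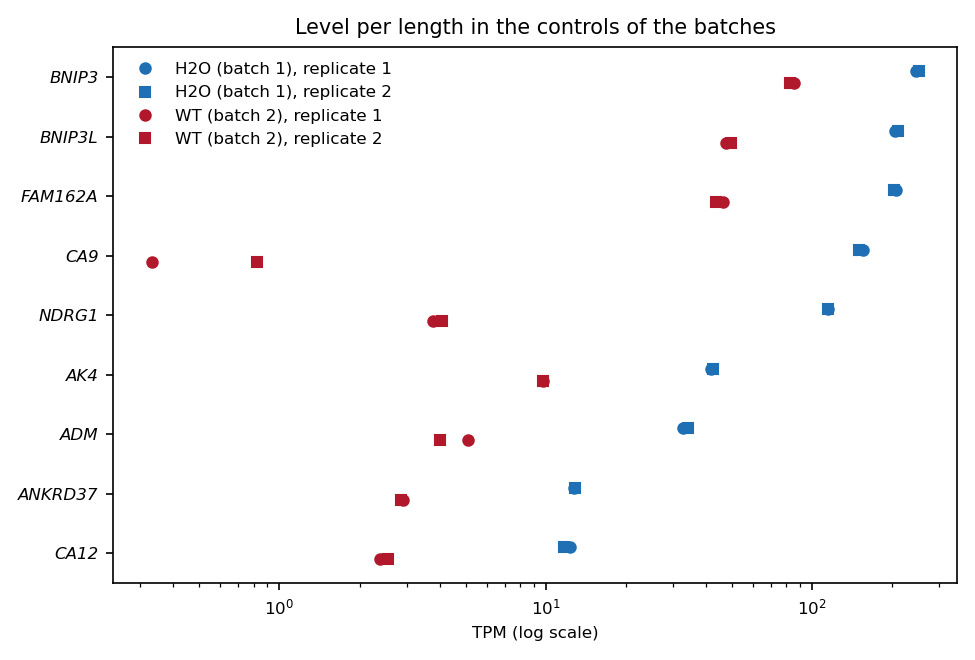
TPM (horizontal log axis) of the 9 genes in each library of the controls, H2O of batch 1 (blue) and WT of batch 2 (red). Circles are replicate 1 and squares replicate 2. Every gene is higher in H2O, with the widest gap in CA9, at 152 against 0.577 TPM.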

How the data were processed

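The files hold raw counts per gene name, which the authors made with featureCounts on the protein-coding part of GENCODE 33, GRCh38 (version 1.5.3 in batch 1 and 2.0.5 in batch 2, per the file headers). The paired option was set and strand was not used, per the file headers. The submitters' processing notes also list Trimmomatic 0.36, STAR 2.6.1d and Subread 1.5.3. Among counts from 1 to 10, 39.0% to 42.3% were even in batch 1 and 77.3% to 80.5% in batch 2, where a count was thus mostly a read and not a fragment. All 13 mitochondrial genes were at 0 in batch 1.

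The main test was the robust quasi-likelihood F-test of edgeR 4.0.16 under R 4.3.3 (TMM scaling, low counts removed by filterByExpr, dispersion of at least 1e-04), each batch in its own fit with 1 coefficient per group. P-values were adjusted by Benjamini-Hochberg over all 13636 or 14061 genes. Intervals are the log2 difference ± 1.96 SE. Simulated counts were used to check the fits. DESeq2 1.42.0 and other settings were run as alternatives. CPM and TPM were computed from the deposited counts, with exonic lengths from the file headers' annotation columns. Replicates of a group differed by more than counting noise (chi-square per gene 1.23 to 1.46 in batch 1 and, with counts halved because most were reads of pairs, 1.93 to 2.76 in batch 2) and were kept apart.

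The members and the 10 gene lists were chosen with earlier results of these data known. All members are named. From each list the text names up to 4 called genes with the smallest adjusted p in a comparison; some of these are not reported here. Promoters and start sites are from RefSeq (GRCh38.p14), and pseudogenes from GENCODE 29.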

Additional observations from a re-analysis of the deposited data

Results flagged for a closer look

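Several genes differed between the CoCl2 doses or between the labelled knockouts, each by a test of the difference itself. NDRG1 was lower at 10 µM and higher at 50 µM CoCl2, and the doses differed by 0.48 on the log2 scale (adjusted p = 7.31e-52, edgeR). BNIP3 did likewise, with a difference between the doses of 0.30 (adjusted p = 8.23e-32).

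The labelled TET2 knockouts differed from one another in AK4, by up to 0.58 between numbers 1 and 2 (adjusted p = 2.26e-10, edgeR), in BNIP3L, by up to 0.39 between numbers 2 and 3 (adjusted p = 1.4e-08), and in BNIP3, by up to 0.20 between numbers 1 and 2 (adjusted p = 7.84e-05). For AK4 the order was number 1, number 3, number 2, and for BNIP3L it was number 2, number 1, number 3. With 2 libraries a group, no single library was compared with its group.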

How the results depend on the processing

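Of 1003 alternatives for single genes, 954 kept direction and call. Genes called at 10 µM were 1087 with DESeq2 and 796 with all 14 libraries in 1 fit, against 3098, and 1859 to 3292 with 1 library left out. Between the doses the fit of all 14 called 4678, against 7197. With 1 library left out, labelled knockout 1 gave 1375 to 2586 calls (2462 with all), number 2 gave 2406 to 3766 (3698), number 3 gave 1566 to 2615 (2653) and the average 1587 to 2703 (2656). The average gave 256 with the knockout libraries pooled.

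Of the 9 genes, 1 was higher at 10 µM with DESeq2 and 1 higher and 1 lower with all 14 libraries, and 1 to 2 higher with 1 library left out. In labelled knockout 1, 2 were lower with all 14 libraries (NDRG1, -0.26, adjusted p = 0.0289) and 1 to 2 higher with 1 library left out. In number 2, 1 was lower with DESeq2, and 0 to 1 higher and 0 to 2 lower with 1 library left out. In number 3 it was 1 to 3 lower. For the average, 0 were higher and 1 lower with the knockout libraries pooled, and 1 to 2 lower with 1 library left out. FAM162A passed the test among labelled knockouts with all 14 libraries (0.14, adjusted p = 0.0485). The cause was not tested.

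Values that changed sign had passed no test, and did so with 1 library left out. ADM at 10 µM ran from -0.116 to 0.00712. CA9 ran from -0.80 to 0.52 in labelled knockout 1, -0.63 to 0.68 in number 2, -1.50 to 0.36 in number 3 and -0.80 to 0.52 on average. In number 1, CA12 ran from -0.0965 to 0.0222 and BNIP3L from -0.00999 to 0.0742. In number 3, ANKRD37 ran from -0.22 to 0.20, BNIP3 from -0.0903 to 0.00746 and FAM162A from -0.0163 to 0.0536. On average, ANKRD37 ran from -0.24 to 0.0589, BNIP3 from -0.0179 to 0.0176, BNIP3L from -0.0240 to 0.0603 and FAM162A from -0.0278 to 0.0421.

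Replicate numbers did not pair the samples, with correlations of deviations of -0.05 to 0.03. A replicate block left all 72 results on single genes at the same call, and gave 2969, 8303 and 7113 calls at 10 µM, at 50 µM and between the doses, and 2228, 3500 and 2458 in labelled knockouts 1, 2 and 3. It gave 2457 for their average and 5054 among them. Depth limits CA9 in batch 2, at 4 to 18 counts per library. CA9 had a result in only 14 alternatives for each labelled knockout, against 15 for genes such as ADM.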

Other observations

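Genes that respond to metals moved with CoCl2 and in labelled knockout 2, and 1 of them in number 1. Of 7 tested, 3 rose at 10 µM, and 6 rose and 1 fell at 50 µM, with a median log2 difference of 2.82 at the higher dose. The metallothioneins MT2A, MT1X and MT1G, small proteins that bind metal ions, rose by 3.33, 3.17 and 2.82 there, and the zinc exporter SLC30A1 by 0.37. All 7 rose in labelled knockout 2, with MT2A higher by 1.79 and SLC30A1 by 0.58, while 1 rose in number 1, and the median difference in number 3 was -0.16. MT1F and MT1G averaged only 0.39 and 0.59 CPM over batch 2. Over all genes, 22.7% were called at 10 µM and 61.4% at 50 µM. In labelled knockouts 1, 2 and 3 it was 17.5%, 26.3% and 18.9%.

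Of 20 glycolytic HIF targets, 2 rose and 11 fell at 10 µM, and 13 rose and 4 fell at 50 µM. At 10 µM GPI fell by 0.20 and the regulatory enzyme PFKFB4 by 0.29, while PDK1, which holds back pyruvate oxidation, rose by 0.15. At 50 µM PDK1 rose by 0.42 and GAPDH by 0.30. In labelled knockout 1, 11 rose and 1 fell, in number 2, 2 rose and 9 fell, and in number 3, 4 rose and 3 fell. The glucose transporter SLC2A3 fell by 0.54 in number 1 and 0.79 in number 3.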
